A study of Mus musculus with 3 samples.

Results

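The 9 genes described here encode the enzymes and regulators that build and break down glycogen in skeletal muscle: Gys1, Ugp2, Gbe1, Ppp1r3a, Ppp1r3c, Pygm, Phka1, Phkb and Phkg1. They were taken by symbol, and all 9 were found among the 42225 gene symbols measured. The RNA came from the gastrocnemius and plantaris muscles of male mice in 3 groups. The aged EPA group was C57BL/6J mice of 87 weeks that had eaten a diet with 1 wt% EPA for 12 weeks from the age of 75 weeks. EPA is eicosapentaenoic acid, a long-chain omega-3 fat of fish oil. The aged control group was C57BL/6J mice of the same age that had eaten a diet lacking EPA over those weeks. The young group was mice of 24 weeks whose strain is labelled C57BL/7J and whose diet is not given in the sources used here. RNA of 6, 6 and 3 mice was pooled in these groups, so each group is a single library, and no difference between them can be tested. Values are CPM (counts scaled to library size) as deposited, and changes are log2 ratios of CPM + 1. The 95% intervals given with count ratios cover counting error only, not the spread between mice or library preparations.

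Glycogen is the glucose store of muscle fibres. UDP-glucose pyrophosphorylase (Ugp2) makes the activated glucose that glycogen synthase (Gys1) adds to the growing chain, and the branching enzyme (Gbe1) adds the branches. Glycogen phosphorylase (Pygm) releases glucose 1-phosphate when the fibre works, after phosphorylase kinase (with subunits encoded by Phka1, Phkb and Phkg1) has phosphorylated it. Protein phosphatase 1, brought to the particle by Ppp1r3a and Ppp1r3c, activates the synthase and inactivates the phosphorylase.

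Recovered depth was 55969822 counts in aged EPA, 57622886 in aged control and 57386394 in young, and the defining markers of skeletal muscle were abundant. The 7 skeletal muscle markers, led by Acta1, Myh4 and Ckm, summed to 138800.5 CPM in aged EPA, 136127 CPM in aged control and 121289 CPM in young. Of 5 liver markers, Apoa1, Ttr and G6pc were listed at 0 in each library, and Alb had 0.624 CPM in aged EPA, 0.318 CPM in aged control and 0.286 CPM in young. The fifth, Cyp2e1, had 36.1 CPM in aged EPA, 27.7 CPM in aged control and 51.1 CPM in young. The 6 slow fibre markers summed to 689 CPM in aged EPA, 852 CPM in aged control and 516 CPM in young. The 5 red cell markers summed to 565 CPM in aged EPA, 561 CPM in aged control and 1508 CPM in young. The 6 adipocyte markers summed to 314, 276 and 419.8 CPM and the 5 endothelial markers to 268, 279 and 348 CPM in aged EPA, aged control and young. The part of these cell types in the values below was not tested, and in bulk RNA fewer cells of a type and less RNA per cell cannot be told apart.

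Gys1, glycogen synthase of muscle, stood apart from the other members. It had 329.5 CPM in aged EPA, 537 CPM in aged control and 278 CPM in young. The aged control library was thus the high one, and the aged EPA library lay nearer to the young one. Aged control exceeded young by 0.95 on the log2 scale, and the count ratio was 1.96 (95% counting interval 1.92 to 1.998). Of 12966 genes that averaged 1 CPM or more, 127 were further above young than Gys1 was. Aged EPA lay below aged control by a log2 change of -0.70, with a count ratio of 0.618 (95% counting interval 0.607 to 0.629), and 168 genes had a lower value in this comparison. Both comparisons use the aged control library, so they are not independent. The slow fibre markers had the same order of libraries, since aged EPA was below aged control for 6 of 6 and aged control was above young for 6 of 6, and their part in the values of Gys1 was not tested. Aged EPA lay above young by 0.24 on the log2 scale, with a count ratio of 1.21 (95% counting interval 1.19 to 1.24).

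**Figure D1:**
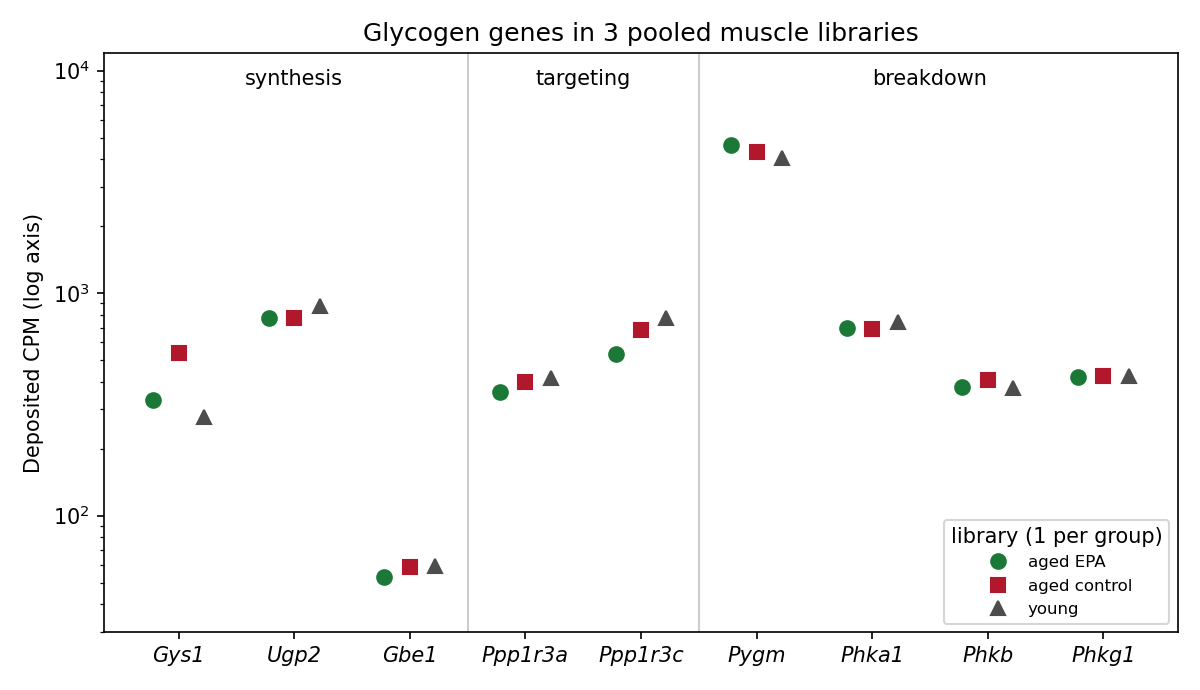
Deposited CPM (log axis) of the 9 glycogen genes, grouped by role, in the aged EPA (circle), aged control (square) and young (triangle) libraries, 1 pooled library per group. Gys1 is highest in aged control at 537 CPM, and Ppp1r3c is lowest in aged EPA at 532 CPM.

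Gys1 lies on the forward strand of chromosome 7, from 45434844 to 45456619 on GRCm38, and its longest principal transcript has 16 exons and 3678 bases. Its exons share 310 bases, or 6.47% of their merged length, with those of Ruvbl2 on the opposite strand. Whether counting used strand is not given in the sources used here, so reads in this stretch could be assigned to either gene. Ruvbl2, which encodes an ATPase of chromatin remodelling complexes, had 20.5 CPM in aged EPA, 18.4 CPM in aged control and 20.3 CPM in young. Its neighbour on the other side, the ferritin light chain gene Ftl1, had 160.5 CPM in aged EPA, 158.6 CPM in aged control and 191 CPM in young. Neither neighbour was highest in aged control. Bax, also looked at, had 11.0 CPM in aged EPA, 9.28 CPM in aged control and 10.9 CPM in young. These genes were chosen for their position after the values of Gys1 were seen.

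The promoter windows below are shown because they belong to the members that differed most (Gys1 and Ppp1r3c), to the most abundant one (Pygm) and to the second targeting subunit (Ppp1r3a). Each runs from 250 bases before to 50 bases after the RefSeq start site (GRCm38.p6), 5′ to 3′ on the gene's strand. Capitals mark CAGCTG, an E-box of the kind that MyoD family factors bind, and in Ppp1r3c also CACGTG, the E-box bound by USF factors. The windows are chr7:45434589-45434888 (forward strand) for Gys1, chr19:36736555-36736854 (reverse strand) for Ppp1r3c, chr19:6384158-6384457 (forward strand) for Pygm and chr6:14755225-14755524 (reverse strand) for Ppp1r3a.
Gys1: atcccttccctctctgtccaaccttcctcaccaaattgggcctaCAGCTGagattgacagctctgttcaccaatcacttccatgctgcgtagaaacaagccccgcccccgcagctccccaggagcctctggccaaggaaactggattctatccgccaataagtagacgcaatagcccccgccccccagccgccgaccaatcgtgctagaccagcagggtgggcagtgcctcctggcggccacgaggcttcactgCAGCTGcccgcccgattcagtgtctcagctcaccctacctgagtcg
Ppp1r3c: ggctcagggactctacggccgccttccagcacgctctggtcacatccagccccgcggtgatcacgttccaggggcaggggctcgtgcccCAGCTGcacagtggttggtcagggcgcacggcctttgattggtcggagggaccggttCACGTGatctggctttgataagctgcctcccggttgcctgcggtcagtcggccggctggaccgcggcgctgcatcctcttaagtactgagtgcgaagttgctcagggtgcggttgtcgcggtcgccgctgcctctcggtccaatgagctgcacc
Pygm: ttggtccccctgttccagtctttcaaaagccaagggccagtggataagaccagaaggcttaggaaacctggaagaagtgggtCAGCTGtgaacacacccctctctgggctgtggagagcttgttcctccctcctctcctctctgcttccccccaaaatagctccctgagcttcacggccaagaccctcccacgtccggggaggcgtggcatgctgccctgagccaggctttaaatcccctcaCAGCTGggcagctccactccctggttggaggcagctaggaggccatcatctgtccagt
Ppp1r3a: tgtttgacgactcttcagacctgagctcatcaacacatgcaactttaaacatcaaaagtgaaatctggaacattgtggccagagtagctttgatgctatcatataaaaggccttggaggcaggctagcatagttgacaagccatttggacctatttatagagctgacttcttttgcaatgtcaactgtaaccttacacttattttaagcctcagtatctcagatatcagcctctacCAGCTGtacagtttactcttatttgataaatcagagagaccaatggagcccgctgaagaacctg

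All 9 genes had a window in the RefSeq table, and Ugp2 had 2, which makes 10. CAGCTG, searched on both strands, was present for 7 of 9 genes and in 7 of 10 windows, against 16.3% of the 32807 windows of the same length in the table. Gbe1 and Phkg1 were the genes without it. CACGTG was found in Ppp1r3c alone among the 9 (7.15% of all windows), starting at base -104 from the start site. ACGTG, the core of hypoxia response elements, lies within CACGTG and was present for Ppp1r3c, Pygm and Ugp2 (19.6% of all windows). The GC box GGGCGG was present for 5 of 9 genes (35.6% of all windows), Gys1 included. Ppp1r3a alone held a TATAAA (13.6% of all windows) and a match to the MEF2 motif (3.19% of all windows), and one of its TATAAA matches lies within the MEF2 match. CAGCTG was thus shared by members that differed between the libraries and by members that hardly did. These matches describe letters in the windows and were not tested for binding.

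The other genes of synthesis did not share the pattern of Gys1. Ugp2 (chromosome 11, 21321138 to 21371201) had 771 CPM in aged EPA, 773 CPM in aged control and 872 CPM in young. The young library was the high one, with a log2 change of -0.18 for aged EPA and -0.17 for aged control against it. Gbe1 (chromosome 16, 70313949 to 70569716) was the least abundant member, with 53.2 CPM in aged EPA, 58.6 CPM in aged control and 59.6 CPM in young. Its count ratio was 0.911 (95% counting interval 0.867 to 0.956) for aged EPA against young and 0.958 (0.913 to 1.005) for aged control against young, so the second difference lay within counting error. As a result, the balance between synthesis genes differed between the libraries. Ugp2 had 2.34 counts per Gys1 count in aged EPA (95% counting interval 2.301 to 2.38), 1.44 in aged control (1.42 to 1.46) and 3.13 in young (3.08 to 3.19).

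The 2 subunits that bring protein phosphatase 1 to glycogen were lowest in the aged EPA library. Ppp1r3c, also called PTG (chromosome 19, 36731731 to 36736653), had 532 CPM in aged EPA, 679.8 CPM in aged control and 776 CPM in young. The libraries were thus ordered aged EPA, aged control, young, from low to high. Against aged control, aged EPA had a log2 change of -0.35 and a count ratio of 0.785 (95% counting interval 0.773 to 0.797). Against young it had a log2 change of -0.55 and a count ratio of 0.697 (0.687 to 0.707), and 450 of the 12966 genes had a lower value. Aged control differed from young by -0.19 on the log2 scale. Ppp1r3a, the subunit known from striated muscle (chromosome 6, 14713977 to 14755274), had 358 CPM in aged EPA, 398 CPM in aged control and 413 CPM in young, in the same order but with smaller steps. Its log2 change was -0.15 for aged EPA against aged control and -0.20 for aged EPA against young, and the first was -0.085 on recovered counts and -0.05 with the trend over transcript length subtracted.

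Among the targeting subunits, compared as CPM per kilobase of principal transcript, Ppp1r3c and Ppp1r3a made up nearly all of the summed level. Ppp1r3c took 77.6% in aged EPA, 80.4% in aged control and 81.9% in young, and Ppp1r3a took 20.5%, 18.4% and 17.1%. Ppp1r3b, the subunit known from liver, took 0.126% in aged EPA, 0.0675% in aged control and 0.0597% in young, and Ppp1r3g was listed at 0 in each library. Per count of Ppp1r3a there were 1.45 counts of Ppp1r3c in aged EPA (95% counting interval 1.42 to 1.47), 1.74 in aged control (1.71 to 1.77) and 1.84 in young (1.81 to 1.87). The targeting subunits were thus present in a lower ratio of Ppp1r3c to Ppp1r3a in aged EPA than in either other library.

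**Figure D2:**
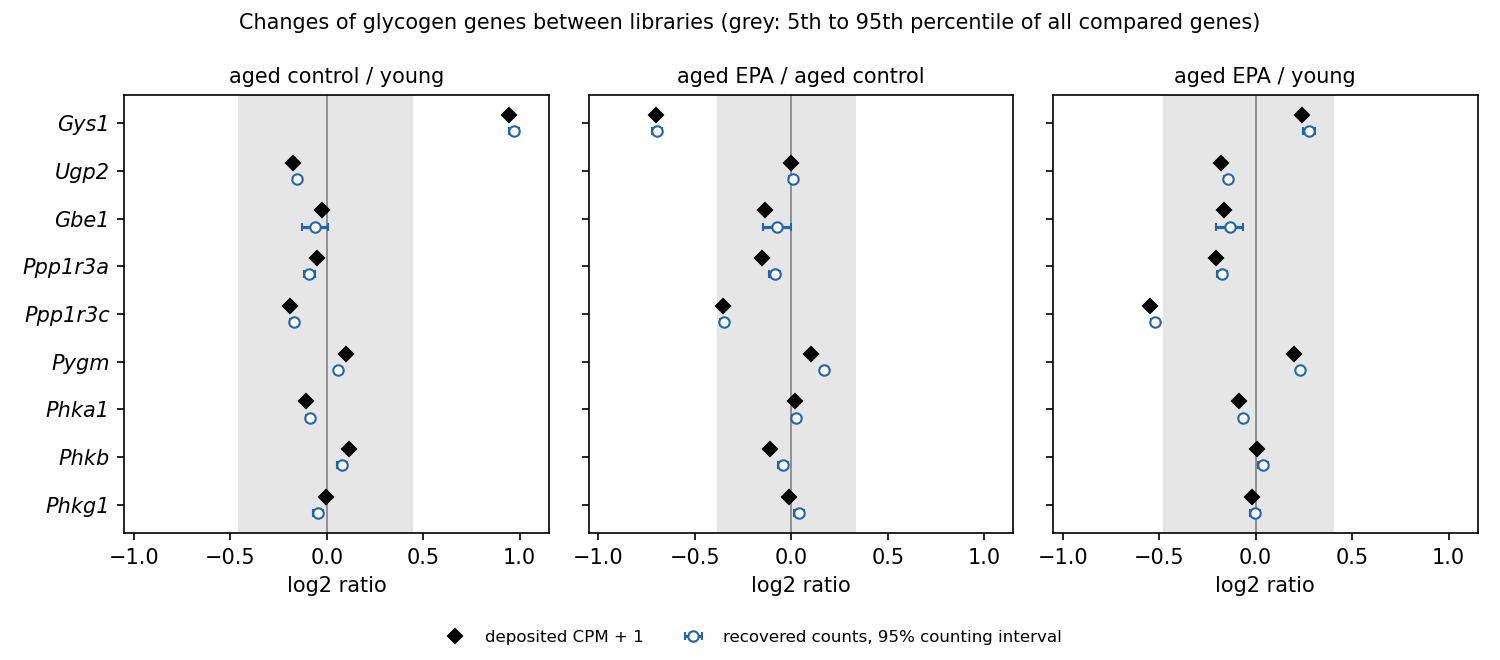
Log2 ratio of each glycogen gene in the 3 comparisons, from deposited CPM + 1 (diamonds) and from recovered counts with their 95% counting interval (open circles). The grey band spans the 5th to 95th percentile of all 12966 compared genes. Gys1 lies outside it in the left and middle panels, and Ppp1r3c lies outside it in aged EPA against young.

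Pygm, muscle glycogen phosphorylase, was the most abundant member and differed little. It lies on chromosome 19 from 6384399 to 6398459 and had 4634 CPM in aged EPA, 4319.7 CPM in aged control and 4038 CPM in young, which placed it 29th, 31st and 29th among all genes of each library. Both aged libraries were above the young one, with log2 changes of 0.20 for aged EPA and 0.10 for aged control, of which the second was 0.06 on recovered counts. The change of aged EPA against aged control was 0.10 on deposited CPM and 0.17 on recovered counts (count ratio 1.12, 95% counting interval 1.118 to 1.13). Because Gys1 and Pygm differed unequally, their ratio moved. There were 14.3 counts of Pygm per count of Gys1 in aged EPA (95% counting interval 14.1 to 14.5), 7.87 in aged control (7.78 to 7.96) and 14.8 in young (14.6 to 15.04). This ratio does not depend on how a library is scaled.

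The genes of phosphorylase kinase, which activates Pygm, were close to equal in the 3 libraries. Phka1, the alpha subunit of muscle (chromosome X, 102513975 to 102644246), had 699 CPM in aged EPA, 690.4 CPM in aged control and 744 CPM in young. Phkb, the beta subunit (chromosome 8, 85840959 to 86061376), had 377 CPM in aged EPA, 407 CPM in aged control and 375 CPM in young. Phkg1, the catalytic gamma subunit of muscle (chromosome 5, 129863421 to 129898549), had 420.5 CPM in aged EPA, 425 CPM in aged control and 426 CPM in young. On deposited CPM the log2 change furthest from 0 among these 3 genes was the 0.12 of Phkb in aged control against young. With the trend over transcript length subtracted it was instead the -0.19 of Phka1 in that comparison, where Phkb had 0.08. The change of Phkg1 was smaller than the shift that the deposited scaling can cause, and its sign differed between deposited CPM and recovered counts in aged EPA against aged control (-0.014 and 0.041). Per count of Phkg1 there were 1.65 counts of Phka1 in aged EPA (95% counting interval 1.62 to 1.68), 1.67 in aged control (1.64 to 1.69) and 1.72 in young (1.69 to 1.74).

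**Figure D3:**
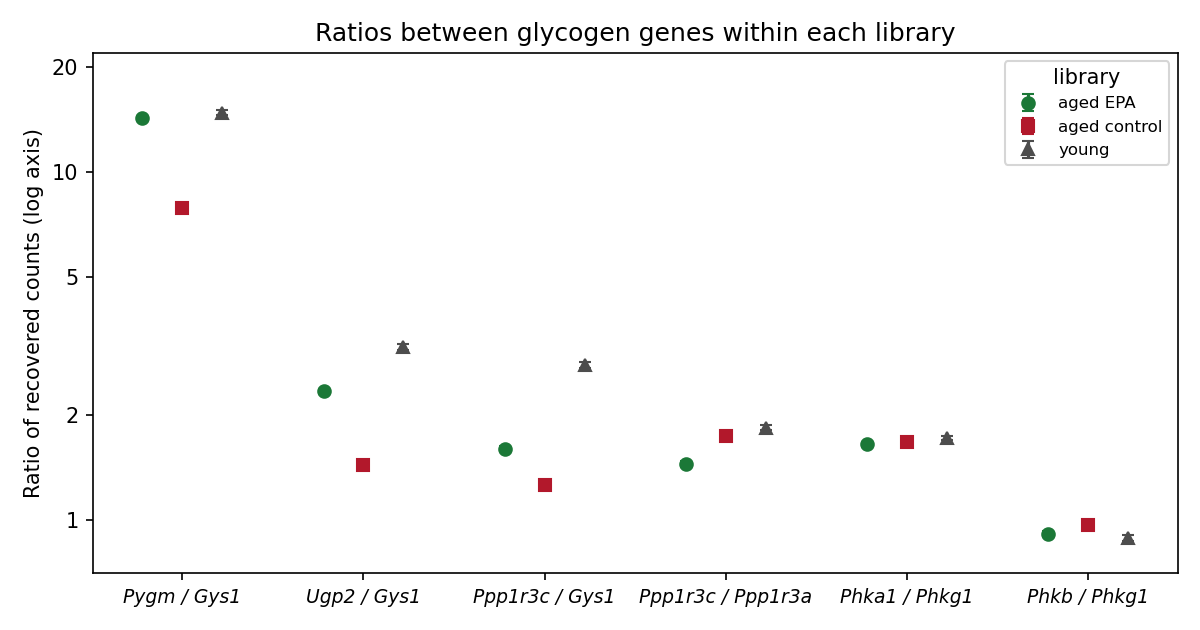
Ratio of recovered counts between pairs of glycogen genes within each library (log axis), with 95% counting intervals that are mostly smaller than the symbols. The ratios to Gys1 are lowest in aged control, where Pygm to Gys1 is 7.87, against 14.3 in aged EPA and 14.8 in young, while the ratios among phosphorylase kinase genes lie close together.

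Compared per kilobase of principal transcript, Pygm had the highest level of the 9 genes and Gbe1 the lowest in every library. Pygm stood at 1612, 1503 and 1405 CPM per kilobase in aged EPA, aged control and young. The next was Ugp2 at 288, 288 and 325 CPM per kilobase, followed by Ppp1r3c at 195, 249 and 285 CPM per kilobase. Gys1 stood at 89.6 CPM per kilobase in aged EPA, 146 in aged control and 75.7 in young, so it was above Phka1 (114, 113 and 122 CPM per kilobase) in aged control and below it in aged EPA and in young. Gbe1 stood at 18.7, 20.6 and 20.96 CPM per kilobase. The place of Phkg1 in this order depends on the length used, since it stood at 177 CPM per kilobase of principal transcript but at 64.6 per kilobase of merged exons in aged EPA. Per kilobase of merged exons, Ppp1r3c was also just above Ugp2 in young, at 284.9 against 284.3. By that length Gys1 and Phka1 were nearly level in aged control, at 112.2 and 110.3.

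The muscle isoforms made up nearly all of the level in each enzyme family. Per kilobase, Pygm took 99.8% of the phosphorylase level in aged EPA, 99.7% in aged control and 99.7% in young, against the brain gene Pygb and the liver gene Pygl. Phka1 took 98.9%, 98.6% and 98.7% of the level of alpha subunit genes over Phka2, and Phkg1 took 97.6%, 97.7% and 97.2% of that of gamma subunit genes over Phkg2. Gys2, the synthase of liver, had 37 counts in aged EPA, 21 in aged control and 0 in young, where a count of 0 allows up to 0.0523 CPM. The level of Gys1 was thus that of nearly all glycogen synthase RNA in each library.

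As a group, most of the 9 genes lay close together in the 3 libraries. The members were chosen with results of these libraries known, so the counts are descriptions. All 9 passed the filter on low values. A gene was counted as higher where its CPM + 1 was at least 25% above that of the other library, and as lower where it was at least 20% below, which is the same ratio turned round. In aged EPA against aged control 2 of 9 were lower (Gys1 and Ppp1r3c) and none was higher, beside 7.38% lower and 5.38% higher among all compared genes. In aged EPA against young 1 of 9 was lower (Ppp1r3c) and none was higher, beside 11.7% and 7.43% of all genes. In aged control against young 1 of 9 was higher (Gys1) and none was lower, beside 9.13% and 10.4% of all genes. With so few members, shares of this size say nothing particular about the list. The median log2 change of the members was -0.11, -0.089 and -0.024 in these 3 comparisons, beside -0.025, -0.037 and -0.013 for all compared genes. On recovered counts it was -0.042, -0.063 and -0.061, beside 0.012, -0.0055 and -0.019 for all compared genes. Past 1.5-fold Gys1 remained in aged EPA against aged control (3.6% of all genes, either direction) and in aged control against young (5.24%), and no member was past it in aged EPA against young (5.36%). No member was past 2-fold in any comparison, beside 1.33%, 1.6% and 1.74% of all genes in aged EPA against aged control, aged EPA against young and aged control against young.

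The genes closest to Gys1 in their pattern were looked for among 9240 genes that averaged 5 CPM or more, leaving out the members and symbols that are only predicted or clone names (Gm followed by digits, or with Rik), by the distance between log2 values centred over the 3 libraries. Vcan, which encodes the matrix proteoglycan versican, was nearest, with 9.85 CPM in aged EPA, 17.1 CPM in aged control and 7.99 CPM in young. The prostaglandin reductase gene Ptgr2 had 33.1, 55.1 and 30.9 CPM in aged EPA, aged control and young. Gigyf2, Ccn2 and Uxs1 followed, and 15 genes lay within 0.2 log2 units. With 3 libraries, likeness of this kind rests on 3 values per gene.

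Other enzymes that act on glycogen were compared as a list of 12 symbols, of which 11 had a row and 10 passed the filter. By the same 25% rule, in aged control against young 2 of 10 were higher and none lower, and in aged EPA against aged control 2 of 10 were lower and none higher. Among all compared genes 9.13% were higher and 10.4% lower in the first comparison, and 5.38% and 7.38% in the second. In aged EPA against young no gene of the list was past the rule, beside 7.43% higher and 11.7% lower among all compared genes. With so few genes, counts of this size say nothing particular about a list. The list's median log2 change was -0.018, 0.04 and 0.14 in aged EPA against aged control, aged EPA against young and aged control against young. Pgm1, a phosphoglucomutase that links glucose 1-phosphate to glycolysis, had 664 CPM in aged EPA, 631 CPM in aged control and 609 CPM in young. The lysosomal glucosidase gene Gaa had 333, 308 and 297 CPM in aged EPA, aged control and young. Gyg, which encodes glycogenin, the protein primer of the particle, had 281 CPM in aged EPA, 278 CPM in aged control and 291 CPM in young. These 3 abundant genes thus varied less than Gys1 did. Epm2a, which encodes the glycogen phosphatase laforin, had 61.6 CPM in aged EPA, 71.8 CPM in aged control and 57.2 CPM in young. Its count ratio for aged control against young was 1.22 (counting interval 1.17 to 1.28), so it was past 25% on deposited CPM only. Pgm2l1, which encodes a glucose 1,6-bisphosphate synthase, had 15.2 CPM in aged EPA, 21.2 CPM in aged control and 16.4 CPM in young. Like Gys1 and Epm2a, it was highest in aged control.

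The remaining subunits of phosphorylase kinase and protein phosphatase 1 formed a list of 14 genes, of which 13 passed the filter. By that rule, in aged control against young 1 of 13 was higher and none lower, in aged EPA against aged control 1 was higher and none lower, and in aged EPA against young 2 were higher and none lower. Among all compared genes 9.13%, 5.38% and 7.43% were higher in these comparisons, and 10.4%, 7.38% and 11.7% were lower. The list's median log2 change was 0.07 in aged EPA against aged control, 0.15 in aged EPA against young and 0.068 in aged control against young. Ppp1cb, a catalytic subunit of protein phosphatase 1, had 279 CPM in aged EPA, 316 CPM in aged control and 298 CPM in young. Calm3 had 257 CPM in aged EPA, 242 CPM in aged control and 231 CPM in young. Ppp1r2, which encodes an inhibitor of this phosphatase, had 111 CPM in aged EPA, 121 CPM in aged control and 115 CPM in young. These 3 most abundant genes of the list stayed within the 25% rule. Ppp1r3d, a further targeting subunit, had 6.53 CPM in aged EPA, 4.11 CPM in aged control and 4.89 CPM in young.

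Kinases that act on the glycogen enzymes were compared as a list of 17 genes, all of which passed the filter. In aged control against young 3 of 17 were higher by that rule and none lower, in aged EPA against aged control 1 was lower and none higher, and in aged EPA against young 1 was higher and 1 lower. Among all compared genes 9.13%, 5.38% and 7.43% were higher in these comparisons, and 10.4%, 7.38% and 11.7% were lower. The list's median log2 change was -0.068 for aged EPA against aged control, 0.041 for aged EPA against young and 0.09 for aged control against young. Prkacb, a catalytic subunit of protein kinase A, had 37.3 CPM in aged EPA, 63.3 CPM in aged control and 37.9 CPM in young. Its count ratio was 0.613 (95% counting interval 0.581 to 0.648) for aged EPA against aged control and 1.62 (1.54 to 1.71) for aged control against young. Like Gys1, it was highest in aged control, as were other genes of this list. Prkag3, the gamma subunit of AMP-activated kinase found in fast muscle, had 181.5 CPM in aged EPA, 198 CPM in aged control and 141.5 CPM in young. Gsk3b, which phosphorylates and inhibits glycogen synthase, had 83.7 CPM in aged EPA, 90.1 CPM in aged control and 71.7 CPM in young. Its count ratio for aged control against young was 1.22 (95% counting interval 1.17 to 1.27), so it was past 25% on deposited CPM only. Prkar1a, a regulatory subunit of protein kinase A, was lowest in aged EPA, at 131 CPM against 159.9 CPM in aged control and 168 CPM in young. The abundant kinase genes Prkab2, Prkaa2 and Akt2 stayed within the 25% rule in every comparison, with 339, 253 and 239.5 CPM in aged EPA.

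**Figure D4:**
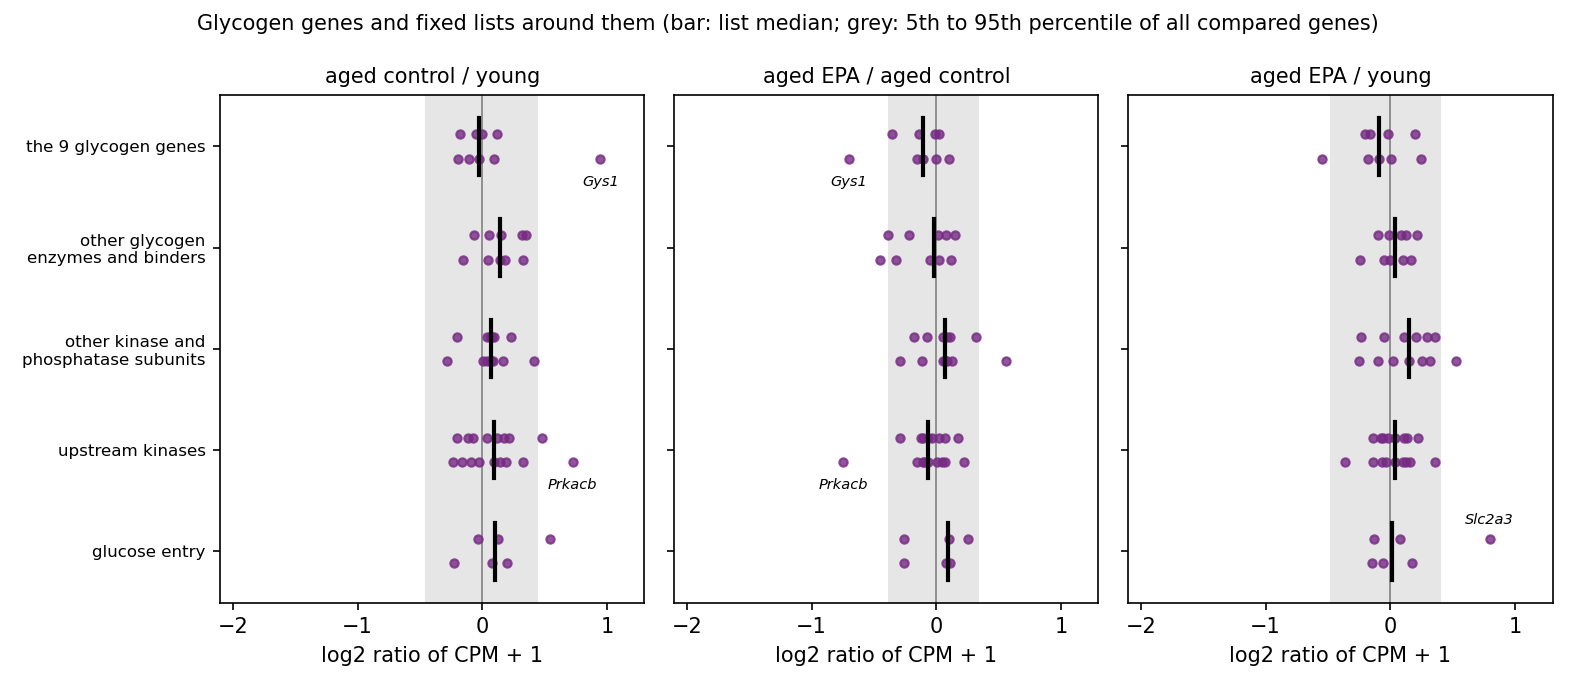
Log2 ratio of CPM + 1 for the 9 glycogen genes and 4 lists of related genes, without the cell type markers (points) and the list median (bar) in the 3 comparisons, with the 5th to 95th percentile of all compared genes in grey and genes beyond 0.6 named. Of the genes plotted, Gys1 and Prkacb lie furthest out in aged control against young, at 0.95 and 0.72.

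Genes of glucose entry and phosphorylation, 6 in all, had median log2 changes of 0.09 (aged EPA against aged control), 0.012 (aged EPA against young) and 0.10 (aged control against young) and differed little apart from Slc2a3. Slc2a4, the insulin-responsive glucose transporter GLUT4, had 623 CPM in aged EPA, 589 CPM in aged control and 688 CPM in young. Hk2, the muscle hexokinase, had 315 CPM in aged EPA, 376 CPM in aged control and 344.5 CPM in young. Gpi1, which interconverts glucose 6-phosphate and fructose 6-phosphate, had 1340.0 CPM in aged EPA, 1251 CPM in aged control and 1188 CPM in young. Slc2a3, a transporter known from neurons and blood cells, had 19.6 CPM in aged EPA, 16.3 CPM in aged control and 10.8 CPM in young. It was the single gene of the 6 past the 25% rule, in both aged libraries against young, with a count ratio of 1.904 (95% counting interval 1.72 to 2.105) for aged EPA and 1.51 (1.36 to 1.67) for aged control. Among all compared genes 7.43% were higher in aged EPA and 9.13% in aged control against young.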

How the data were processed

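Gene expression was deposited by the authors as CPM per gene, 1 table per library. The submitters' processing notes list, without roles, StringTie 1.3.4d, HISAT2 2.1.0 and R 3.5.0, and the build GRCm38 (mm10). Deposited CPM rested on 5 divisors that varied from gene to gene. Multiplied by 1 of these, 100% of values above 0 were whole counts (tolerance 1e-06), and deposited CPM differed from CPM over a library's own total by -2.98% to 2.84%. Values of repeated symbols were summed. The 12966 genes that averaged 1 CPM or more were compared by log2 ratios of CPM + 1, with exact Clopper-Pearson 95% intervals of the ratio of recovered counts over own totals, conditional on their sum. A floor of 3 counts was used. With 1 library per group no test was made.

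Members and lists were chosen with earlier results of these data known. Named were the 9 members, the 3 most abundant genes of each list, list genes averaging 5 CPM or more that were past 25%, and the 5 genes most like the member of widest range. Isoforms of members and neighbours of Gys1 were added after their values were seen. Positions, transcript lengths and overlaps came from GENCODE M21, which matched 42256 of 42258 identifiers. Scripts ran in Python 3.11.15 with SciPy 1.17.1 and were tested on simulated data. Alternatives were other pseudocounts, filters, scalings and thresholds, recovered counts, subtraction of the length trend, and, added later, merged exon length. Some genes of the lists are not reported here.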

Additional observations from a re-analysis of the deposited data

How the results depend on the processing

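The members at least 25% higher or 20% lower numbered 2 in aged EPA against aged control, 1 in aged EPA against young and 1 in aged control against young, and these counts held under 9 alternatives (pseudocounts of 0.1 and 5, both other filters, 3 other scalings, recovered counts and subtraction of the length trend). With a 1.5-fold threshold they were 1, 0 and 1, and with a 2-fold threshold 0, 0 and 0. Under those 9 alternatives Gys1 ranged from -0.70 to -0.67 in aged EPA against aged control and from 0.92 to 0.97 in aged control against young, and Ppp1r3c from -0.55 to -0.50 in aged EPA against young. In aged EPA against aged control Ppp1r3c ranged from -0.355 to -0.326, and the latter, under TMM scaling, was only just past the 20% limit. Of 243 values of members under alternatives, 59 moved beyond the counting interval, by at most 0.10, and 0 of the members past 25% turned sign. Among the small changes, Ugp2 in aged EPA against aged control turned sign under 5 of the 9 alternatives. Phkg1 did so under 3 of the 9 in each comparison. The median of members in aged EPA against aged control, -0.11, was -0.081 under TMM scaling, -0.042 with recovered counts over own totals and -0.044 with the length trend subtracted. In aged EPA against young, -0.089, it was -0.049 with the median of ratios, -0.046 under TMM and -0.063 with recovered counts over own totals. In aged control against young, -0.024, it was -0.011 with the median of ratios, -0.01 under TMM, -0.039 without mitochondrially encoded and the 20 most abundant genes and -0.061 with recovered counts over own totals. The median of all compared genes moved too. Under TMM it went from -0.025 to -0.00013 in aged EPA against aged control and from -0.037 to 0.00059 in aged EPA against young. With recovered counts it went from -0.025 to 0.012 in aged EPA against aged control and from -0.037 to -0.0055 in aged EPA against young. In aged control against young it went from -0.013 to -0.019 with recovered counts. Why the medians of members moved was not tested. Per kilobase of merged exons Phkg1 stood at 64.6 in aged EPA, 65.2 in aged control and 65.4 in young. No paired analysis was possible because each group is a single library. Depth leaves counting error small for the 9 genes, and the spread between mice, which the pooling hides, cannot be estimated.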
